A study of Mus musculus with 6 samples.

Results

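A set of 10 genes of extracellular proteolysis was followed in RAW264.7 cells, a mouse macrophage line. They are the matrix metalloproteinase (MMP) genes Mmp9, Mmp12, Mmp13 and Mmp14, the ADAM genes Adam8, Adam10 and Adam17, and the genes of their tissue inhibitors, Timp1, Timp2 and Timp3. They were chosen by gene symbol, with earlier results of these data known, and all 10 were found among the 25124 genes of the deposited table. Polyadenylated RNA was sequenced from 3 samples labelled M1, treated with 100 ng/ml lipopolysaccharide (LPS, from the outer membrane of bacteria) and 50 ng/ml interferon-γ, and from 3 samples labelled M0, given neither. Cells of both groups came from a control line made with a Cas9 plasmid lacking a guide sequence, for comparison with an E4BP4 knockout, and were grown in medium with 25 mM glucose. The sources used here do not give the duration of the treatment. They also do not say whether replicates came from separate cultures, so a p-value measures the spread among these 6 samples only, and that spread may be technical.

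MMPs are zinc-dependent proteases that cut collagens, elastin, gelatins and many non-matrix proteins, and they are made as inactive precursors whose prodomain has to be removed. ADAMs are membrane-bound relatives. Those described here cut the outer parts of other membrane proteins, and ADAM17 is known for releasing tumour necrosis factor from macrophages. TIMPs bind the active site of MMPs and, for some pairs only, of ADAMs. Net activity of such a pair depends on enzyme and inhibitor together, which RNA levels do not measure.

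The shared feature of the proteases is a zinc-binding site in the catalytic domain, and its coding bases are shown here because they set the 7 enzymes apart from the 3 inhibitors. In each protease the longest open reading frame of the GENCODE M21 transcripts (GRCm38) held a single such stretch of 33 bases, and in the TIMP genes it held none. Capitals mark the codons of the 3 zinc-binding histidines and of the catalytic glutamate. All 7 stretches had the same base at 14 of the 33 positions, the 4 MMPs at 17 and the 3 ADAMs at 18. The search itself required these residues, or an aspartate in place of the last histidine, and a glycine at a set position. Much of this identity was therefore fixed in advance and does not measure likeness.
Mmp9: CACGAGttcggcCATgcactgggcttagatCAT
Mmp12: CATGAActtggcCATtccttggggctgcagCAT
Mmp13: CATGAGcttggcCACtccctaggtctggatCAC
Mmp14: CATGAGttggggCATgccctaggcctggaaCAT
Adam8: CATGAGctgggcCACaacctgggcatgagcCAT
Adam10: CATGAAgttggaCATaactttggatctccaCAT
Adam17: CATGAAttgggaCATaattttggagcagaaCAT

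Between 15615639 and 20283180 reads per library lay in genes. Levels are in TPM, which takes transcript length and library depth into account so that genes can be compared. Summed over the listed genes, TPM ran from 568081 to 572349 in M1 and from 551257 to 555447 in M0. Of 10 macrophage markers 9 were expressed highly enough to be tested, with 4 called higher, 4 lower and 1 not called, against 5, 2 and 2 after rescaling, and the list summed to 2615 to 2662 TPM in M1 and 2864 to 3101 TPM in M0. Over all tested genes 18.7% were called higher and 61.5% lower, and after rescaling 38.1% and 35.4%. The test and the rescaling are described below. Adgre1, which encodes the macrophage antigen F4/80, stood at 67.6 ± 1.13 TPM in M1 and 2.73 ± 0.505 TPM in M0 (mean ± SD, n = 3 per group here and below), and Lyz2, the lysozyme gene, at 683 ± 25.5 TPM in M1 and 1069 ± 78.3 TPM in M0. Cd68 had 474 ± 15.0 TPM in M1 and 568 ± 46.6 TPM in M0, and its call as lower was lost after rescaling, with its sign turned (0.11). No gene of the fibroblast and lymphocyte lists was high enough to be tested, and these lists summed to at most 1.64 and 0.36 TPM in any library. Of 8 osteoclast markers 2 were tested, and both were lower in M1, Nfatc1 at 3.84 ± 0.24 TPM in M1 and 8.71 ± 0.465 TPM in M0, and Dcstamp at 0.232 ± 0.058 TPM in M1 and 1.83 ± 0.284 TPM in M0. Dcstamp reached the level for a test in M0 only, so it could be called only as lower in M1. The osteoclast genes Acp5, Ctsk and Calcr reached at most 0.096 TPM in any library. Of 8 neutrophil markers 1 was tested, and the list summed to 3.83 to 4.64 TPM in M1 and 4.55 to 6.04 TPM in M0. It was S100a8, at 3.39 ± 0.453 TPM in M1 and 5.29 ± 0.753 TPM in M0, called lower on the TPM scale only. S100a9 and Mpo were at 0 in all 6 libraries, and Camp had 18 reads in M1 and 1 in M0. M0 replicate 2 listed 16774 genes above 0, against 15161 to 15782 in the other libraries.

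Comparing M1 with M0 asks how RNA of these proteases and inhibitors differs after LPS and interferon-γ. Mmp13, Mmp12 and Adam17 rose in M1, and Adam8, Timp2, Mmp9 and Adam10 fell. Mmp13 rose 12.5-fold and Adam8 fell 3.32-fold, whereas the other 5 changed by less than 2-fold. Among all tested genes 6.48% were called higher and 11.3% lower by at least 2-fold. Mmp14, Timp1 and Timp3 lay below the level needed for a test, which was 1 TPM in at least 3 samples. The groups did not overlap for any of the 7 tested genes, with 3 higher and 4 lower in M1. Over all 11297 tested genes 18.7% were called higher and 61.5% lower, 80.2% together, at a Benjamini-Hochberg adjusted p under 0.05 (limma, on log2(TPM + 1)), and in 19.6% and 61.8% every M1 sample lay above or below every M0 sample. The median log2 fold change was -0.59 over the 7 genes and -0.31 over all tested genes.

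Because the median of all genes lay below 0 on the TPM scale, the fit was repeated on values rescaled by median-of-ratios factors, with a median of 0.02. On that scale 38.1% of tested genes were called higher and 35.4% lower, 73.5% together. The same 3 family genes were called higher and the same 4 lower there. Each of the 7 had the same direction in the authors' deposited table. In a bulk sample, fewer cells that express a gene and less of its RNA per cell cannot be told apart.

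**Figure D1:**
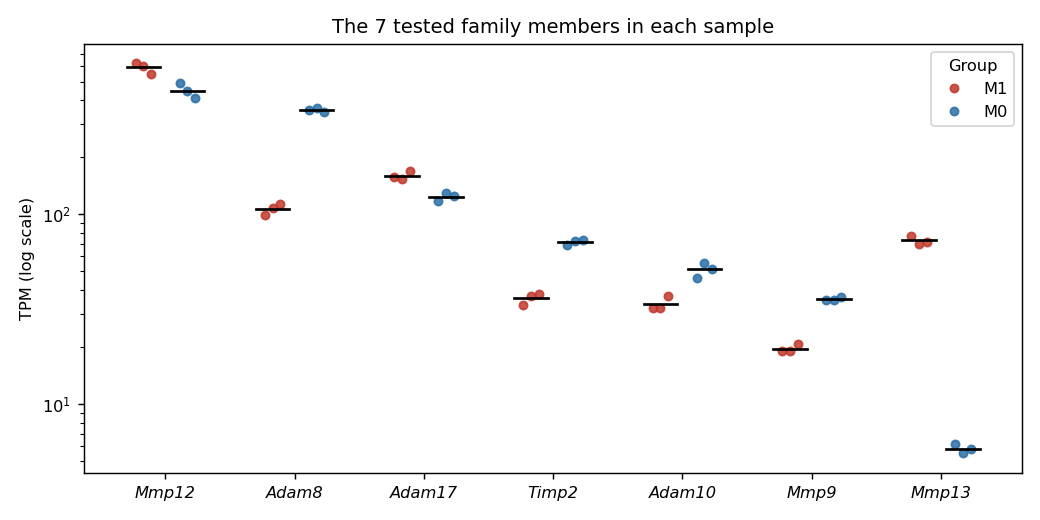
TPM (log axis) of the 7 tested genes in each of 3 M1 and 3 M0 samples, ordered by the M0 level; points are samples and lines are group means. Mmp12 was the highest of the 7 in both groups, Mmp13 was the lowest in M0 at 5.82 TPM and reached 72.9 TPM in M1, and the groups did not overlap for any of the 7.

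Mmp13 encodes collagenase 3, which cuts fibrillar collagen, and had the largest increase of the 7. Mmp13 (NM_008607, chromosome 9, 7272514 to 7283333, plus strand, mm10) had 77.2, 70.0 and 71.5 TPM in the M1 samples, against 6.15, 5.50 and 5.81 TPM in the M0 samples. Every M1 sample stood more than 10 times above every M0 sample. These levels rested on 9568 reads in M1 and 685 in M0. The log2 fold change was 3.44 (SE 0.06, limma adjusted p = 8.6e-13), and 3.77 after rescaling. It ranked 130th from the top of the 11297 fitted changes. It was 4.01 in the authors' deposited table, on that table's own scale.

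Mmp12 encodes macrophage elastase. Mmp12 (NM_008605, chromosome 9, 7347374 to 7360461, plus strand) had 622, 607 and 550 TPM in M1, against 489, 444 and 411 TPM in M0. It was the most abundant of the 10 genes in all 6 samples, and ranked 151st in M1 and 176th in M0 by mean TPM among all tested genes. The lowest M1 sample lay above the highest M0 sample, by less than the spread within M0. Its log2 fold change was 0.41 (SE 0.07, limma adjusted p = 0.00022), against 0.77 after rescaling and 0.77 in the authors' deposited table.

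Mmp9 encodes gelatinase B, which cuts denatured collagen and collagen IV. Mmp9 (NM_013599, chromosome 2, 164948219 to 164955850, plus strand) had 19.0, 19.1 and 20.7 TPM in M1, against 35.3, 35.5 and 36.7 TPM in M0. The samples of each group lay close together, and the M1 level was 1.83-fold lower. Its log2 fold change was -0.84 (SE 0.05, limma adjusted p = 5.5e-08), and -0.49 after rescaling. Mmp9 is also a gene of osteoclasts, and the osteoclast markers Nfatc1 and Dcstamp were lower in M1 as well, 2.27-fold and 7.87-fold. Dcstamp reached the level for a test in M0 only, so it could be called only as lower. The part of these markers in the result was not tested.

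Mmp14 encodes MT1-MMP, a membrane-bound collagenase that activates other MMPs. Mmp14 (NM_008608, chromosome 14, 54431598 to 54442456, plus strand) had 0.204, 0.307 and 0.311 TPM in M1, against 0.034, 0.035 and 0 TPM in M0. These values stood for 13, 20 and 18 reads in M1 and 2, 2 and 0 reads in M0. The ratio of M1 to M0 was 11.4, with an exact 95% counting interval of 4.20 to 43.5. Its level in M1 was still far below that of the other MMP members. Without a filter on low values it was called higher (limma adjusted p = 0.00051), and its log2 fold change in the authors' deposited table was 3.88.

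Mmp13 and Mmp12 lie next to each other, 64.0 kb apart, in a cluster of 10 Mmp genes on chromosome 9 that spans 427 kb in the deposited coordinates. Mmp10, which encodes stromelysin 2, was the only other tested Mmp gene of the cluster and rose to 5.05, 4.02 and 4.60 TPM in M1, against 2.69, 1.69 and 2.32 TPM in M0 (log2 fold change 0.79, limma adjusted p = 8.6e-05). The other 7 reached at most 0.169 TPM in any library. Outside the cluster, the flanking gene Dcun1d5 had 77.5 TPM in M1 and 74.0 TPM in M0 and was called higher only after rescaling (limma adjusted p = 0.22 on the TPM scale), whereas Tmem123 on the other side had 123 TPM in M1 and 102 TPM in M0 and was called higher (log2 fold change 0.26, limma adjusted p = 0.00018). Mmp10 and Mmp3 are similar in sequence, so that reads could be shared between them.

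**Figure D2:**
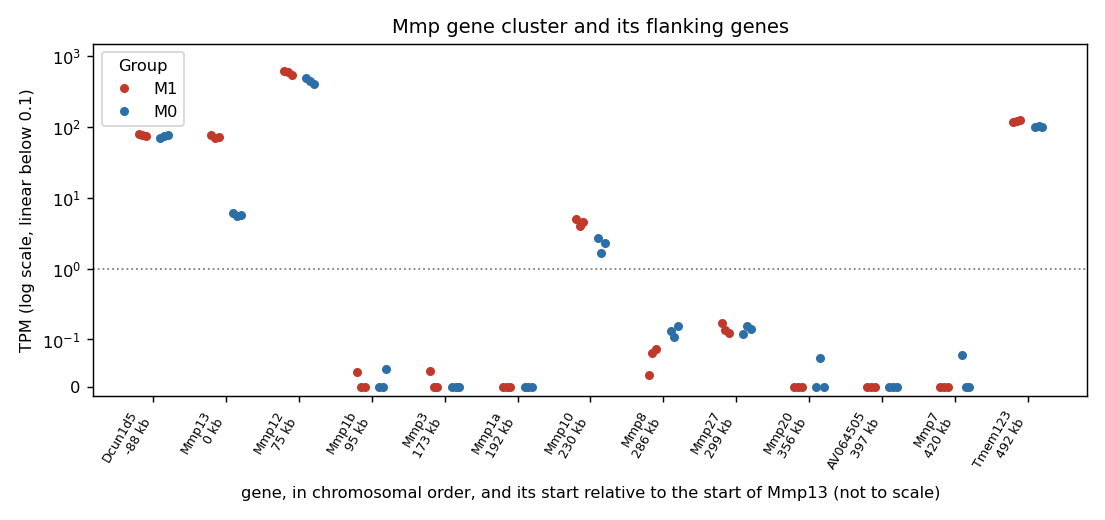
TPM of the Mmp cluster genes and of the nearest listed gene on either side, in chromosomal order, for 3 M1 and 3 M0 samples (log axis, linear below 0.1); the dotted line is 1 TPM. Mmp13, Mmp12 and Mmp10 lie above the line, and 7 Mmp genes between and beyond them stay at or below 0.169 TPM.

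The bases just before the start of the transcript are shown for Mmp13 and Mmp12, the neighbours that rose, and for Adam8, which fell most (RefSeq, GRCm38.p6, up to 250 bases before the start, in the direction of the gene). A RefSeq promoter was found for 9 of the 10 genes. Capitals mark matches to AP-1 (TGANTCA), GAS (TTCNNNGAA), ISRE (GAAA, any 2 bases, GAAA), the D-box bound by E4BP4 (TTANNTAA) and NF-κB sites, searched on both strands, and to the TATA box (TATAAA) on the gene's strand.
Mmp13, chr9:7272264-7272513, plus strand: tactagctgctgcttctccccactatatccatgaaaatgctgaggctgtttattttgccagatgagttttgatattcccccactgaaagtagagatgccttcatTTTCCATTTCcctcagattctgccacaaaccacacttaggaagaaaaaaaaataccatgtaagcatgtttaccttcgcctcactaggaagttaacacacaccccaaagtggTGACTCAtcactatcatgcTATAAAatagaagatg
Mmp12, chr9:7347124-7347373, plus strand: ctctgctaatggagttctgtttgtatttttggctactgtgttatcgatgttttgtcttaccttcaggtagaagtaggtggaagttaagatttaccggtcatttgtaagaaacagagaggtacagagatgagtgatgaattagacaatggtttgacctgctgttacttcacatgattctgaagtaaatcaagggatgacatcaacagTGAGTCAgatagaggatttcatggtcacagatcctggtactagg
Adam8, chr7:139992563-139992812, minus strand: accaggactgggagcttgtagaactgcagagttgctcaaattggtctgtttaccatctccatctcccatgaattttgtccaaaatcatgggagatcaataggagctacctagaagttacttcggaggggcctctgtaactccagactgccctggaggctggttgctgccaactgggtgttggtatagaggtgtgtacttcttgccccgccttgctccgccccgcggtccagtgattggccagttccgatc

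Mmp13 held an AP-1 match that began 35 bases before its start, an ISRE match at 146 bases and a TATA box at 16 bases. Mmp12 held an AP-1 match that began 44 bases before the start of the deposited transcript. No other gene of the 9 held an AP-1 match in this window. Adam17, which rose, and Adam8, Adam10 and Timp2, which fell, held none of the 6 motifs, and neither did Mmp14, Timp1 and Timp3. A second Mmp12 start listed further upstream had a D-box and an NF-κB match. No matches overlapped. An AP-1 match stood in 6.75% of all 250-base promoter windows, ISRE in 2.98% and the TATA box in 7.59%. GAS stood in 7.02%, the D-box in 5.43% and NF-κB in 7.25%. A match describes these letters only and is not evidence of binding.

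Among the ADAMs, Adam8 was the most abundant in M0 and Adam17 in M1. Adam8 encodes a protease of activated leukocytes that sheds cell surface receptors. Adam8 (NM_007403, chromosome 7, 139978932 to 139992562, minus strand) had 98.6, 108 and 113 TPM in M1, against 355, 362 and 345 TPM in M0. The groups lay far apart, and the means stood at 107 ± 7.53 TPM in M1 and 354 ± 8.75 TPM in M0. Adam8's log2 fold change was -1.72 (SE 0.05, limma adjusted p = 1.4e-10), and -1.36 after rescaling. It ranked 268th from the lowest of the 11297 fitted changes, and stood at -1.37 in the authors' deposited table.

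Adam17 encodes the tumour necrosis factor converting enzyme. Adam17 (NM_009615, chromosome 12, 21323509 to 21373632, minus strand) had 156, 154 and 168 TPM in M1, against 117, 130 and 124 TPM in M0. Every M1 sample was higher, and the means differed by 1.29-fold. The log2 fold change was 0.36 (SE 0.05, limma adjusted p = 6.0e-05), against 0.72 after rescaling and 0.73 in the authors' deposited table. The 3′ end overlaps Iah1 on the opposite strand, which had 43.4 TPM in M1 and 52.5 TPM in M0, and whether the authors counted by strand is not known from the sources used here.

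Adam10, which encodes a sheddase of Notch receptors and many adhesion proteins, went the other way. Adam10 (NM_007399, chromosome 9, 70678982 to 70780229, plus strand) had 31.9, 32.2 and 37.1 TPM in M1, against 46.3, 55.5 and 51.8 TPM in M0. The M1 samples were all lower, and the M0 samples were spread more widely, relative to their mean, than the groups of the other ADAMs. The log2 fold change was -0.59 (SE 0.08, limma adjusted p = 2.8e-05). Of the 7 tested genes it came closest to 0 after rescaling, at -0.23 (SE 0.07, limma adjusted p = 0.0097), and was -0.24 in the authors' deposited table.

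Of the inhibitors only Timp2 was expressed at a level that could be tested. Timp2 encodes a soluble inhibitor that also takes part in the activation of pro-MMP-2 by MT1-MMP. Timp2 (NM_011594, chromosome 11, 118301061 to 118355411, minus strand) had 33.3, 37.2 and 38.1 TPM in M1, against 69.1, 71.9 and 72.9 TPM in M0. The M1 samples stood at about the middle of the distance between 0 and the M0 level, a 1.97-fold difference of the means. For Timp2 the log2 fold change was -0.96 (SE 0.06, limma adjusted p = 2.8e-08), and -0.60 after rescaling.

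Timp1, an inhibitor that is inducible in many cell types, and Timp3, which binds the matrix and inhibits ADAM17, were close to undetected. Timp1 (NM_011593, chromosome X, 20870166 to 20874737, plus strand) had 1, 1 and 1 reads in M1 and 0, 4 and 3 reads in M0. The groups overlapped, and the ratio of M1 to M0 of 0.384 had an exact 95% counting interval of 0.0641 to 1.68. Timp1 lies within Syn1 on the opposite strand, which had 3.97 TPM in M1 and 7.61 TPM in M0, so the few reads cannot be assigned to either gene with certainty. Timp3 (NM_011595, chromosome 10, 86300412 to 86349505, plus strand) had no read in M1 and 1 read in M0. That read was in M0 replicate 2, the library with the most genes above 0.

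**Figure D3:**
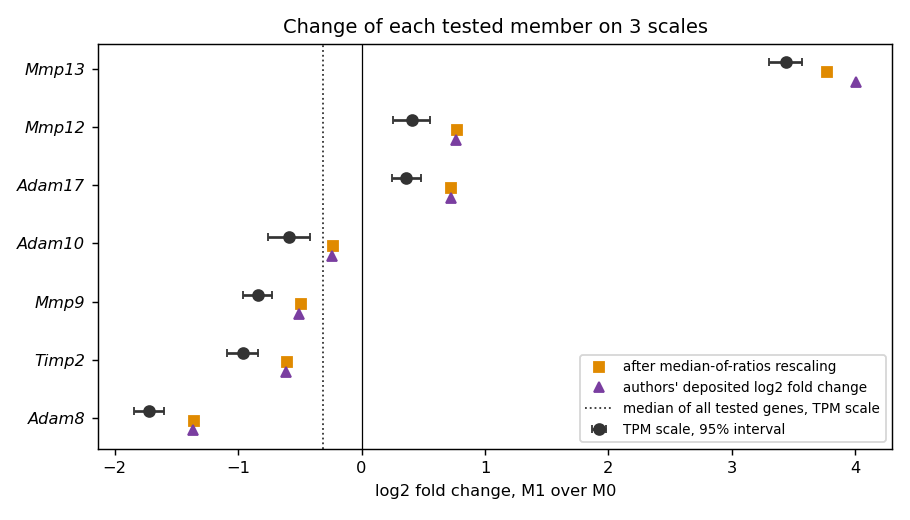
Log2 fold change of M1 over M0 for the 7 tested genes: circles with 95% intervals on the log2(TPM + 1) scale, squares after median-of-ratios rescaling, and triangles from the authors' deposited table. The dotted line is the median of all tested genes on the TPM scale, -0.31; each gene keeps its side of 0 on all 3 scales.

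Ratios within a sample do not depend on how libraries are scaled. The summed TPM of the 4 MMP genes was 719, 696 and 642 in M1, against 531, 485 and 453 in M0. The summed TPM of the 3 TIMP genes was 33.4, 37.2 and 38.1 in M1, against 69.1, 72.2 and 73.1 in M0, and nearly all of it came from Timp2. The ratio of these sums was 19.0 ± 2.36 in M1 and 6.86 ± 0.751 in M0, a 2.77-fold difference without overlap. The ratio of summed ADAM to summed TIMP was 8.28 ± 0.362 in M1 and 7.40 ± 0.252 in M0, a 1.12-fold difference also without overlap. With 3 samples against 3 an exact two-sided permutation test of such a value cannot go below p = 0.10, and no call was made from it. Whether the Timp2 product inhibits these ADAMs was not tested, so the ADAM to TIMP ratio is not a measure of enzyme and inhibitor balance.

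The make-up of each family differed as well. Mmp13 made up 10.6 ± 0.549% of the MMP sum in M1 and 1.19 ± 0.0792% in M0. Mmp9 made up 2.87 ± 0.31% in M1 and 7.36 ± 0.719% in M0, so that these genes changed places in rank while Mmp12 stayed first with 86.4 ± 0.793% in M1 and 91.4 ± 0.78% in M0. Among the ADAMs, Adam8 made up 35.6 ± 1.19% of the sum in M1 and 66.9 ± 1.32% in M0, whereas Adam17 made up 53.2 ± 1.17% in M1 and 23.4 ± 0.672% in M0. The ratio of Adam17 to Adam10 was 4.74 ± 0.187 in M1 and 2.43 ± 0.10 in M0. The ratio of Mmp9 to Timp2, which fell together, was 0.543 ± 0.028 in M1 and 0.503 ± 0.00819 in M0.

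**Figure D4:**
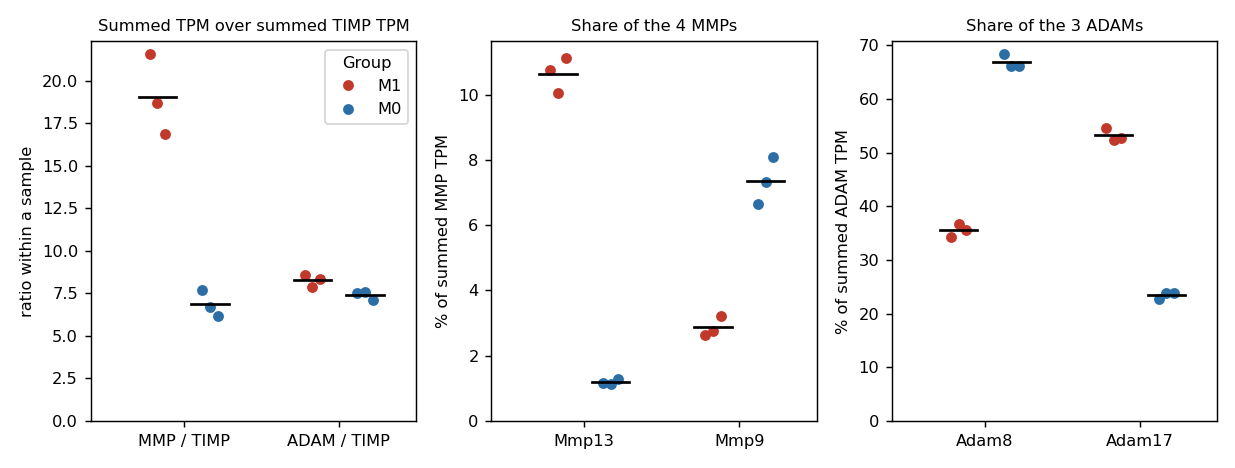
Values within each of 3 M1 and 3 M0 samples: the ratio of summed MMP or ADAM TPM to summed TIMP TPM, the share of Mmp13 and Mmp9 in the MMP sum, and the share of Adam8 and Adam17 in the ADAM sum; points are samples and lines are means. The MMP to TIMP ratio averages 19.0 in M1 and 6.86 in M0, and in the panels of shares the gene with the larger share differs between the groups.

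In M1 the order of mean TPM was Mmp12, Adam17, Adam8, Mmp13, Timp2, Adam10 and Mmp9. Timp2 and Adam10 were neighbours whose samples overlapped in that group, at 33.3 to 38.1 TPM and 31.9 to 37.1 TPM. In M0 the order was Mmp12, Adam8, Adam17, Timp2, Adam10, Mmp9 and Mmp13, with no overlap between neighbours. The genes whose profile over the 6 samples was nearest to that of Mmp13 were Apol9b, Cd83 and Trim30a, at root mean square differences of 0.066, 0.0771 and 0.0787 on the centred log2(TPM + 1) scale. Their mean levels were 11.8, 10.3 and 321 TPM in M1 and 0.106, 0.0743 and 26.7 TPM in M0. That scale flattens values near 0, so the TPM ratios of Apol9b and Cd83 were far larger than that of Mmp13. Apol9b has a near-identical copy, Apol9a, with which it can share reads. Nearest to Adam8 were Cdk2, Cd5 and Rrm2, at 0.028, 0.0357 and 0.0404. With only M1 and M0 compared, such nearness mainly restates a similar log2 fold change. It was 3.54, 3.39 and 3.54 for the genes near Mmp13, and -1.71, -1.68 and -1.74 for those near Adam8.

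Of the other 19 MMP genes listed, 4 were tested, with 2 called higher, 2 lower and a median log2 fold change of 0.19, and the other 15 reached at most 0.361 TPM in any library. For this and the lists below, the shares over all tested genes were 18.7% higher and 61.5% lower, and 38.1% and 35.4% after rescaling. Some listed genes reached the level for a test through a single group, and could then be called only as higher in that group. They include Mmp25, Adamts4, Lcn2 and Col4a2 through M1, and Mmp19 through M0. Mmp25, a protease tethered to the membrane by a lipid anchor, had 3.32, 3.30 and 3.51 TPM in M1, against 0.090, 0.075 and 0.128 TPM in M0. That was 588 reads in M1 and 15 in M0, a 34.6-fold difference of mean TPM (limma adjusted p = 6.6e-10). Mmp10 was the other that rose. Mmp19 fell to 0.829 ± 0.201 TPM in M1, against 2.73 ± 0.378 TPM in M0. Mmp24, a membrane-type MMP, had 4.12 ± 0.198 TPM in M1 and 5.79 ± 0.427 TPM in M0, and its call as lower was lost after rescaling (limma adjusted p = 0.23).

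Of the other 31 ADAM genes listed, 3 were tested, with none higher and 2 lower, against 1 and 1 after rescaling. Adam15 fell to 92.9 ± 5.76 TPM in M1, against 148 ± 5.35 TPM in M0 (log2 fold change -0.67, limma adjusted p = 3.6e-07). Adam9 had 89.8 ± 6.29 TPM in M1 and 97.9 ± 4.67 TPM in M0, was not called (limma adjusted p = 0.070), and was higher after rescaling with its sign turned (0.24). Some other settings called Adam9 lower. Adam3, known from sperm, had 1.84 ± 0.134 TPM in M1 and 2.76 ± 0.412 TPM in M0 and lost its call after rescaling (limma adjusted p = 0.16). Of 19 secreted ADAMTS proteases 3 were tested. Adamts4, an aggrecanase, rose to 1.99 ± 0.0532 TPM in M1, against 0.115 ± 0.00651 TPM in M0. Adamts10 fell to 4.16 ± 0.373 TPM in M1, against 13.7 ± 0.412 TPM in M0, whereas Adamts1, at 8.90 ± 0.449 TPM in M1 and 11.4 ± 0.376 TPM in M0, was called lower on the TPM scale only (log2 fold change 0.01 after rescaling). None of 5 other metalloproteinase inhibitors could be tested. Reck, a membrane-anchored inhibitor, had 0.135, 0.264 and 0.193 TPM in M1, against 0.562, 0.733 and 0.582 TPM in M0, without overlap and below the level for a test.

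ADAM17 reaches the cell surface with the help of the iRhom proteins, and ADAM10 with that of a group of tetraspanins. Of 9 such partners 6 were tested, with 1 higher and 4 lower, against 2 and 3 after rescaling. Rhbdf2, which encodes iRhom2, rose to 93.7, 99.2 and 103 TPM in M1, against 31.1, 29.9 and 31.0 TPM in M0, without overlap (log2 fold change 1.65, SE 0.05, limma adjusted p = 8.6e-11). Rhbdf1, which encodes iRhom1, had 1 read in each group. Frmd8, a partner of the iRhoms, had 21.9 ± 0.663 TPM in M1 and 29.7 ± 1.97 TPM in M0 and was called lower on the TPM scale only. The ADAM10 partners Tspan14 and Tspan5 fell to 8.01 ± 0.253 and 9.84 ± 0.559 TPM in M1, against 23.7 ± 1.12 and 23.5 ± 0.656 TPM in M0. Tspan17 fell too (log2 fold change -0.82), and Tspan15 had 1.60 ± 0.0849 TPM in M1 and 1.45 ± 0.127 TPM in M0 and was called higher after rescaling only.

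Prodomains of some ADAMs and of some MMPs are removed by proprotein convertases, of which 2 of 7 were tested. Furin rose to 73.0, 78.9 and 82.7 TPM in M1, against 27.3, 30.3 and 31.6 TPM in M0 (log2 fold change 1.37, SE 0.06, limma adjusted p = 4.3e-09). Pcsk7 had 15.4 ± 0.474 TPM in M1 and 16.5 ± 1.20 TPM in M0, was not called (limma adjusted p = 0.19), and was higher after rescaling with its sign turned (0.25). Plasmin activates several pro-MMPs, and of 8 genes of plasminogen activation 4 were tested, with 3 higher and 1 lower on both scales. Plau, the urokinase gene, fell to 62.5 ± 2.45 TPM in M1, against 145 ± 8.09 TPM in M0, while its receptor gene Plaur rose to 117 ± 7.04 TPM in M1, against 83.8 ± 5.95 TPM in M0.

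All 6 genes listed for the binding and clearance of the Mmp9 product were tested, with 2 higher and 4 lower, against 3 and 3 after rescaling. Lcn2, whose product binds that of the MMP9 gene in human neutrophils, had 60.4, 61.2 and 53.3 TPM in M1, against 0.150, 0 and 0 TPM in M0. Its M0 level was 2 reads, so that the ratio of 1091 had an exact 95% counting interval of 302 to 9011. Cd44, a docking receptor, rose to 122 ± 6.45 TPM in M1, against 87.5 ± 4.06 TPM in M0. Itgam and Itgb2, the chains of an integrin that binds the precursor, fell to 122 ± 9.82 and 114 ± 3.52 TPM in M1, against 184 ± 5.61 and 166 ± 8.42 TPM in M0. Lrp1, which encodes an endocytic receptor for proteases and TIMPs, fell to 70.4 ± 9.79 TPM in M1, against 149 ± 11.3 TPM in M0. Bsg, which encodes basigin, had 194 ± 3.93 TPM in M1 and 228 ± 8.34 TPM in M0, and was called lower on the TPM scale (log2 fold change -0.24, limma adjusted p = 0.00044) and higher after rescaling (0.13, limma adjusted p = 0.042).

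Among 24 membrane proteins known to be shed by ADAM17 or ADAM10, 14 were tested, with 9 higher, 4 lower and 1 not called, against 10, 3 and 1 after rescaling. Over all tested genes 18.7% were called higher and 61.5% lower, and after rescaling 38.1% and 35.4%. Tnf had 821 ± 5.95 TPM in M1, so that in M1 the Tnf level stood above that of Adam17, at 159 ± 7.67 TPM, whereas in M0 Tnf had 23.7 ± 1.00 TPM beside 124 ± 6.33 TPM for Adam17. Tnfrsf1b, a tumour necrosis factor receptor gene, rose to 145, 156 and 175 TPM in M1, against 29.1, 30.4 and 29.7 TPM in M0. Icam1 rose by 4.15 on the log2 scale. Il6ra, the interleukin-6 receptor gene, fell to 4.60 ± 0.168 TPM in M1, against 19.9 ± 0.195 TPM in M0, and Il1r2 fell to 1.64 ± 0.196 TPM in M1, against 5.92 ± 0.906 TPM in M0. App had 184 ± 11.5 TPM in M1 and 181 ± 5.13 TPM in M0 and was higher after rescaling only (0.39).

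Of 21 matrix proteins that these proteases can cut, 4 were tested, with 2 higher, 1 lower and 1 not called, against 3, 0 and 1 after rescaling. Col4a2, a chain of collagen IV, rose to 2.37 ± 0.396 TPM in M1, against 0.0953 ± 0.017 TPM in M0, and the fibronectin gene Fn1 rose to 6.24 ± 0.324 TPM in M1, against 4.17 ± 0.28 TPM in M0. Spp1, which encodes osteopontin, had 1488 ± 28.8 TPM in M1 and 2118 ± 119 TPM in M0, and its call as lower was lost after rescaling (limma adjusted p = 0.064). Lamc1, a laminin chain, had 47.7 ± 5.89 TPM in M1 and 41.4 ± 3.63 TPM in M0, was not called (limma adjusted p = 0.064), and was higher after rescaling (0.55).

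**Figure D5:**
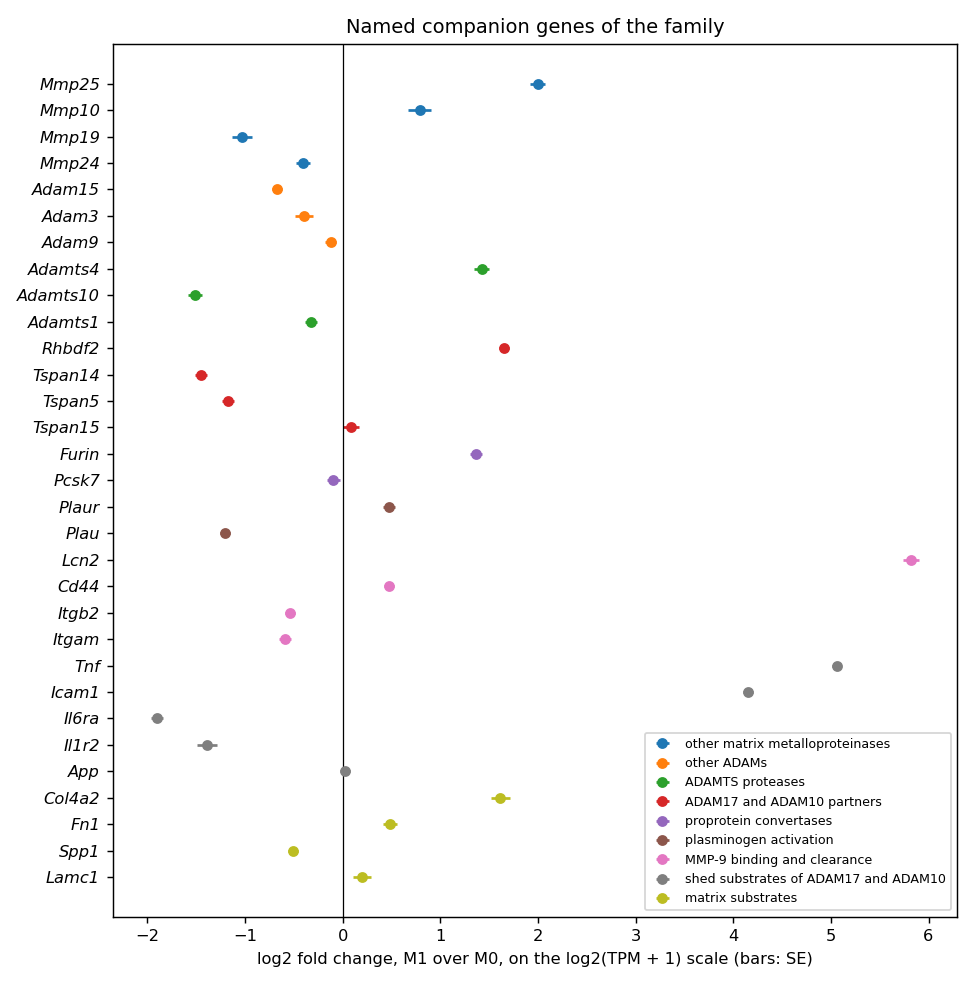
Log2 fold change of M1 over M0 (limma on log2(TPM + 1), bars are SE) for genes named from the companion lists, coloured by list. Lcn2, Tnf and Icam1 lie above 4, Furin and Rhbdf2 between 1 and 2, and Tspan14, Tspan5, Plau and Il6ra below -1.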

How the data were processed

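Poly(A)-selected RNA was sequenced from 3 M1 and 3 M0 samples of RAW264.7 cells. One table deposited by the authors holds TPM for each gene, per the file headers. A second table from the authors holds log2 values for each sample (transform not stated), with a log2 fold change, a p-value and its adjusted form, computed by the authors for 24421 genes, per the file headers. In that table the header reads M0 vs. M1, and positive values are higher in M1. Tools listed without role or order in the submitters' processing notes are DESeq2, HOMER 4.11.1, STAR 2.7.5a and bcl2fastq, with build mm10. The design had planned a count model if counts were deposited, and the values are TPM. Therefore limma 3.58.1 (R 4.3.3, trend and robust) was run on log2(TPM + 1) over the 11297 genes with 3 or more samples at or above 1 TPM, fitting the group alone (residual degrees of freedom: 4). Fold changes are on that scale and are understated for low genes; folds are ratios of mean TPM. Calls have a Benjamini-Hochberg adjusted p under 0.05. Reads were recovered from TPM times transcript length, which gave whole numbers within 0.1 for 99.8% to 100% (rounded) of the values under 100 reads in each library. Intervals cover counting error only. Between replicates, chi-square over degrees of freedom ran from 1.55 (M1 replicates 1 and 2) to 7.90 (M1 replicates 1 and 3). No cut-off was set, so these values cannot tell whether replicates were technical. The procedure was also run on simulated data in which most genes did not change. Those data lacked the shift of the median seen here, so they cannot judge the choice of scale. Alternatives were the rescaling, 2 pseudocounts, 2 filters, limma without trend, voom on recovered reads, a replicate block and leaving out each sample. All 10 genes were described; from each companion list up to 2 genes called higher and 2 lower with the smallest p were named with the most abundant gene not called, and 8 genes whatever their values. A gene that this rule takes is not reported here. Frmd8, Tspan17, Lrp1, Bsg, Tmem123, Dcun1d5, Cd68, Adgre1, Lyz2, S100a8, Camp, Nfatc1, Dcstamp, Acp5, Ctsk and Calcr were named beyond that rule, after their values were seen. The genes and lists were chosen with earlier results of these data known.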

Additional observations from a re-analysis of the deposited data

How the results depend on the processing

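The 3 genes of the family that were higher (Mmp13, Mmp12 and Adam17) and the 4 that were lower (Adam8, Timp2, Mmp9 and Adam10) kept direction and call in all 14 alternatives, with the highest adjusted p of each at 0.0097 or less. The log2 fold change ran from 3.40 to 3.77 for Mmp13, 0.35 to 0.77 for Mmp12 and 0.32 to 0.72 for Adam17. It ran from -1.77 to -1.36 for Adam8, -1.002 to -0.60 for Timp2, -0.89 to -0.49 for Mmp9 and -0.66 to -0.23 for Adam10. After rescaling by median-of-ratios factors, 4305 genes were called higher and 4002 lower, against 2111 and 6944 on the TPM scale, and the reversed log2 fold changes among the genes of the companion and marker lists were those of Adam9 (0.24), Adamts1 (0.00999), Pcsk7 (0.25), Bsg (0.13) and Cd68 (0.11). Over the fits without 1 sample, that of App ran from -0.018 to 0.072, reversed without M1 replicate 3. The cause of the App change was not tested. Leaving out each sample in turn gave 1990 to 2076 genes higher and 6606 to 6997 lower. Same-numbered M1 and M0 samples did not deviate together (correlations -0.08 to 0.07), and not every sample correlated best with its own number. With the replicate block 2143 genes were called higher and 7016 lower, and it changed no call of the 7 genes, while Adam9 (limma adjusted p = 0.040) and Lamc1 (limma adjusted p = 0.012) became called. Adam9 was also called lower with voom on recovered reads (-0.15, limma adjusted p = 0.012). The same held without M1 replicate 3 (limma adjusted p = 0.0056) and without M0 replicate 1 (limma adjusted p = 0.028), so its calls went both ways. Among the 33 companion genes taken by the naming rule, 436 values stayed on their side of the threshold, 3 were no longer called, 12 became called and 4 reversed. Without a filter on low values Mmp14 was also called higher. Depth limits Mmp14, Timp1 and Timp3, which rested on at most 51 reads per group.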
